A study of Mus musculus with 131 samples.

Results

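The 5hmC landscape of 20 day hepatocytes was taken from the whole peak list of 1 hydroxymethylated DNA immunoprecipitation library (5hMeDIP-Seq) of wild type C57Bl mice. The list held 287566 peaks, of which 284615 lay on the autosomes, out of 804494 peaks in all 13 peak lists of the series. A second set, the highest 10% by score, held the 32252 peaks that scored 31 or more. This was 11.2% of the list because many peaks share a score, and 32144 of them were autosomal. The score is the peak caller's own, and rises with the number of sequence tags; peaks at a score of 31 had a median normalised tag count of 12.3. The 4359 peaks just outside the limit, at a score of 30, had a median size of 626 bp and 0.589 CpG per 100 bp, and the 3784 peaks just inside it, at 31, had a median size of 627 bp and 0.592 CpG per 100 bp.

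The study followed loss of DNA methylation in mouse liver after birth. All mice were C57Bl. Hepatocytes were released with collagenase and sorted for cells without CD45, the surface protein of blood cells. The 5hmC peaks were set against 3 polyA RNA-Seq libraries each of uninjected wild type mice (WT) at 3 weeks and at 15 weeks, and against whole-genome bisulfite sequencing (WGBS) of 1 library each of WT hepatocytes labelled newborn (age 1 week), of adult WT hepatocytes at 15 weeks, and of adult Tet2/Tet3 double mutant hepatocytes (DKO) at 15 weeks. DKO mice carried floxed Tet2 and Tet3 and received, at 1 day, an AAV8 virus with Cre under Tbg, a promoter active in hepatocytes. The controls of the DKO RNA libraries were mice of 15 weeks labelled WT that had the same injection at 1 day. Chromatin came from ATAC-Seq and HNF6 ChIP-Seq of livers labelled wild type or deleted for both genes after birth (2 libraries per genotype and assay) and from H3K27ac and H3K4me1 ChIP-Seq of WT and DKO hepatocytes at 15 weeks (1 library each).

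5-hydroxymethylcytosine (5hmC) is made from 5-methylcytosine (5mC) by the TET enzymes, and in mammals most 5mC lies at CpG dinucleotides. 5hmC can be oxidised further and replaced by unmodified cytosine, or diluted when DNA is copied, and it is known to be frequent in the bodies of active genes and around enhancers in many tissues. Bisulfite sequencing reads 5mC and 5hmC alike, so a methylated WGBS value can hold both, while the antibody used for 5hMeDIP recovers single-stranded DNA fragments that carry 5hmC.

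The sequences of a few peaks show 2 kinds of DNA in the list. The first set was chosen by rule from 200 bp WGBS tiles. These were at least 35 percentage points lower in adult than in newborn and at least 35 points higher in DKO than in adult. The 6 highest scoring peaks of different genes that overlap such a tile by at least 1 bp were taken, with 1 tile each. Of these, 5 are printed. Coordinates are in mm9 and the plus strand is printed 5′ to 3′, with each CpG in capitals.
Tile 8861 bp from Itga11, chr9:62516601-62516800: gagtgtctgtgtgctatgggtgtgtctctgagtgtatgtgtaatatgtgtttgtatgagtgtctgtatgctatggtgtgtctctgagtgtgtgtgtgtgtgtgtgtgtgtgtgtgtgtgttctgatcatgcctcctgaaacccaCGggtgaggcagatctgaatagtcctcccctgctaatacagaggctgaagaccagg
Tile 10872 bp from Ccnl1, chr3:65739001-65739200: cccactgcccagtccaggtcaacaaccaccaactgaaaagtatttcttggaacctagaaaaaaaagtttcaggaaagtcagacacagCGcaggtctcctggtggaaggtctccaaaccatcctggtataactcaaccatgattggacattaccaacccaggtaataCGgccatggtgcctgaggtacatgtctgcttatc
Tile in an intron of Dopey2, chr16:93726801-93727000: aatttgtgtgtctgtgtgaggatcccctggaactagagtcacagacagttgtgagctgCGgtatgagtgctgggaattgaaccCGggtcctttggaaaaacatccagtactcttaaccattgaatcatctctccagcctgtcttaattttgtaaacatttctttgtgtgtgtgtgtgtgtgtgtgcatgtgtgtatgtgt
Tile 591549 bp from Lphn2, chr3:147886801-147887000: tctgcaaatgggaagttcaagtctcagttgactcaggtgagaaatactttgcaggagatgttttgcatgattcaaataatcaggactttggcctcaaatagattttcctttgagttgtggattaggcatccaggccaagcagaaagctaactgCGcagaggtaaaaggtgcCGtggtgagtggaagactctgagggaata
Tile in an intron of Sec16b, chr1:159460001-159460200: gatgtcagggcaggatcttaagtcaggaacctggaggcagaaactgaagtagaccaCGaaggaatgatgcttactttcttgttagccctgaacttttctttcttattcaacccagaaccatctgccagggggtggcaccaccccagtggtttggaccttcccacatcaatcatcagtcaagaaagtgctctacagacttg

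The 5 printed tiles held 1 or 2 CpG each, and 3 of the 5 peaks that overlap them contained a long run of a short tandem repeat. In Dopey2 and Sec16b the peak reaches only a part of the tile. There the CpG of the tile lie outside the peak. The tile near Itga11 fell from 90.9% methylation in newborn to 45.5% in adult and stood at 81.0% in DKO. The tile in Dopey2 fell from 79.5% to 22.2%, with 79.4% in DKO, and the tile in Sec16b, a gene expressed at a mean of 21.7 FPKM at 3 weeks, fell from 75.9% to 36.0%, with 77.4% in DKO. Values of tiles with 1 or 2 CpG rest on few positions, and their read depth is unknown.

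The second set was chosen after the values were seen, to show tiles of the same class that are rich in CpG and lie in peaks without a repeat run.
Tile 8363 bp from Irs2, chr8:10978401-10978600: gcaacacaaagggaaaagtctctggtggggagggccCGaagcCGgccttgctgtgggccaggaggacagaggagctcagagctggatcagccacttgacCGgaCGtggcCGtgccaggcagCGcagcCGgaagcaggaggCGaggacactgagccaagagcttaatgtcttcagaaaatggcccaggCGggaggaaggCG
Tile 1473 bp from Il22ra1, chr4:135282401-135282600: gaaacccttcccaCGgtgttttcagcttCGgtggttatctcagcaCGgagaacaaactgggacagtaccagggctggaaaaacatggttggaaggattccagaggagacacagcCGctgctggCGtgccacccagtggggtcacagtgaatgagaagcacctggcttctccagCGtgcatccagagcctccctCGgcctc
Tile 3063 bp from Supt5, chr7:29126801-29127000: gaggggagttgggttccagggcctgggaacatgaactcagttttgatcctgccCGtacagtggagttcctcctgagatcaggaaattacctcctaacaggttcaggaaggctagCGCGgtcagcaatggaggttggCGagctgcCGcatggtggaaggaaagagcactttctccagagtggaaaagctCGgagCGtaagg

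The tile near Irs2, the gene of an adaptor of the insulin receptor, held 10 CpG and read 61.5% in newborn, 21.2% in adult and 83.3% in DKO, inside a peak that scored 66. The tile near Il22ra1, a subunit of the interleukin 22 receptor, held 7 CpG and read 41.1%, 3.11% and 80.1%. The tile near Supt5, a transcription elongation factor, held 7 CpG and read 57.8%, 17.3% and 75.0%.

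The third set, also chosen after the values were seen, gives repeat runs inside peaks of high score, with the run in capitals.
AC run 3181 bp from 4930467E23Rik, chr8:19756783-19756859: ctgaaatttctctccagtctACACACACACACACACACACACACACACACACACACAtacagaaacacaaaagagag
AAAG run in an intron of A530032D15Rik, chr1:85100885-85100964: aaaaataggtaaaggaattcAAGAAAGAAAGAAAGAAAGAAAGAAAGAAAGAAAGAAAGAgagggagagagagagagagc

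The peak around the AC run scored 91 and its 500 bp held no CpG. The peak around the AAAG run scored 94 and held 5 CpG.

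Peaks were many, small and low. The library had 25209919 tags, of which 8343727, or 33.1%, lay in peaks, and 57.5% of the peaks had a size of exactly 500 bp, the median of the list, with a range from 350 to 73144 bp. The score ran from 16, the caller's tag threshold, to 945, with a median of 20. Autosomal peaks covered 193675886 bp, or 8.09% of the sequenced autosomal bases, and stood at 110 to 126 peaks per Mb on the autosomes. The library had no input and no replicate, so no peak could be tested, and all intervals on shares are 95% Wilson intervals for counting error only.

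Peaks of the list were poorer in CpG than the genome, and the more so the higher they scored. The autosomes held 0.851 CpG per 100 bp, the peaks 0.696 and the highest 10% held 0.561. With the autosomal peaks cut by score into 10 groups of equal size, CpG density went from 0.783 per 100 bp in the lowest group to 0.558 in the highest. GC content did not fall with it, at 41.9% for the autosomes, 43.0% for the peaks and 43.3% for the highest 10%. A share of 8.12% of the peaks held no CpG at all.

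Short tandem repeats made up much of the list. A run is here a perfect repeat of a unit of 1 to 6 bp over at least 30 bp, a criterion set after the data were seen. Windows of 500 bp at the peak centres held a run in 49.5% of 284615 cases (49.3 to 49.7) and in 60.1% (59.6 to 60.7) of the highest 10%, against 9.76% (9.68 to 9.85) of 478711 windows placed every 5 kb. By whole peaks, 156900 held a run and 127715 did not. Read from the other side, 45.3% (44.9 to 45.8) of the placed windows with a run overlapped a 5hmC peak, against 10.6% (10.5 to 10.7) of those without.

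None of the other assays showed this. The same 500 bp windows held a run in 5.05% to 5.81% of ATAC-Seq peaks (4 libraries), 7.33% to 7.89% of HNF6 peaks (4 libraries), and 4.05% to 6.55% of H3K27ac and H3K4me1 peaks (4 libraries), all below the placed windows. The share of peaks with a run rose with the score, from 43.6% in the lowest of the 10 groups to 67.8% in the next to highest and 67.4% in the highest. CpG density fell with the score both in peaks with a run, from 0.712 to 0.536 per 100 bp, and in peaks without, from 0.848 to 0.606.

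**Figure D1:**
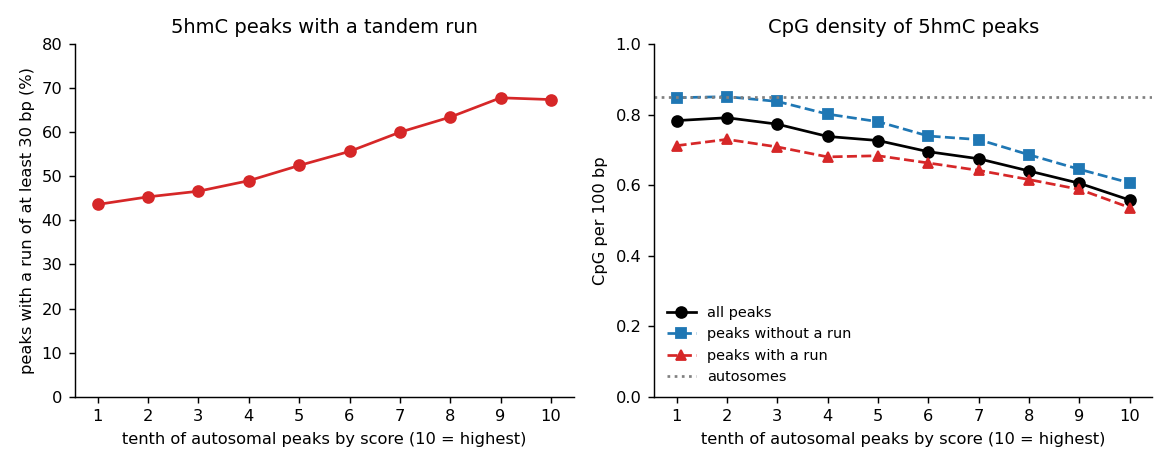
Autosomal 5hmC peaks in 10 groups of equal size by score, 28461 or 28462 peaks each. Left, the share with a tandem run of at least 30 bp, with 95% Wilson intervals, which rises from 43.6% to 67.4%. Right, CpG per 100 bp of all peaks, peaks without a run and peaks with a run, beside the autosomal mean of 0.851 (dotted), all lower in the highest group than in the lowest.

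Runs with a peak differed by their unit. Units are named on either strand and in any frame. Among purine-only units, 82.1% of AAAG, 81.2% of AAGG and 82.7% of AAG runs overlapped a peak, 71.6% of AGG, 64.1% of AG and 47.5% of AGGG runs. The most frequent runs, AC, did so in 45.3% of 181756 cases, with 43.4% at 30 to 49 bp, 56.1% at 50 to 69 bp and 75.2% of 306 runs of 70 bp or more. Longer runs did not have more peaks for every unit, since AGGG runs went from 55.7% to 33.8% and 14.8% over the same lengths. Runs made of A and T alone had few peaks: 2.61% for AT, 7.15% for AAAT and 13.4% for A. AGAT runs stood at 23.4%. AC runs were in 21.5% of the windows at peak centres and AG runs in 15.3%, against 3.90% and 1.90% of the placed windows. No input library was used here against which these peaks could be set. Several of the results below are therefore also given for the 127715 peaks without a run, or for DNA away from runs.

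By their centres, peaks were scarcer in exons and promoters than the genome, and near to it in introns. Each peak was placed by its centre in a promoter (1 kb before to 100 bp after a transcription start), otherwise an exon, otherwise an intron or up to 1 kb past the gene end, otherwise between genes. Exons took 1.29% (1.25 to 1.33) of peaks against 2.97% of autosomal bases, and 0.516% (0.444 to 0.601) of the highest 10%. Promoters took 2.12% (2.07 to 2.18) against 2.46%, and 1.73% (1.59 to 1.87) of the highest 10%, introns 38.5% against 38.3%, and intergenic DNA 58.1% (57.9 to 58.3) against 56.2%. Without a run, peaks were placed more as the genome is, with 1.93% in exons, 2.39% in promoters, 39.6% in introns and 56.0% between genes. Counted by any overlap in place of the centre, 4.48% of peaks reached an exon and 3.26% a promoter. A whole peak can reach more than 1 kind of feature, so these shares cannot be set against shares of bases.

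Within gene bodies, peaks without a run became denser with expression. Genes were classed by their mean FPKM (fragments per kilobase of transcript, scaled to the library, a level per length) over the 3 libraries at 3 weeks. Peaks without a run stood at 0.458 per 10 kb in 10394 genes under 0.1 FPKM, 0.483 from 0.1 to 1 (3341 genes), 0.588 from 1 to 10 (6395 genes), 0.799 from 10 to 100 (2545 genes) and 1.16 at 100 or more (383 genes). With each 3 week library used alone, the highest class gave at most 1.19 and the lowest at most 0.460, with the same order.

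Peaks with a run and peaks of high score behaved otherwise. Peaks with a run went from 0.661 per 10 kb under 0.1 FPKM down to 0.506 at 1 to 10 and up to 0.760 at 100 or more. The runs themselves followed the same course, at 2.32, 1.65 and 2.02 per 10 kb in these classes. The highest 10% by score went from 0.148 per 10 kb in the lowest class to 0.0799 at 10 to 100 FPKM and 0.111 at 100 or more. Among these, peaks without a run stood at 0.0490, 0.0449, 0.0313, 0.0268 and 0.0450 per 10 kb from the lowest class to the highest. High-scoring peaks without a run were thus no denser in the highest class than in the lowest. Over all peaks, the density was 1.12, 1.07, 1.09, 1.39 and 1.92 per 10 kb from the lowest class to the highest. The share of runs in gene bodies that had a peak was 47.3% in the lowest class, 45.7% at 1 to 10 FPKM and 58.7% in the highest.

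**Figure D2:**
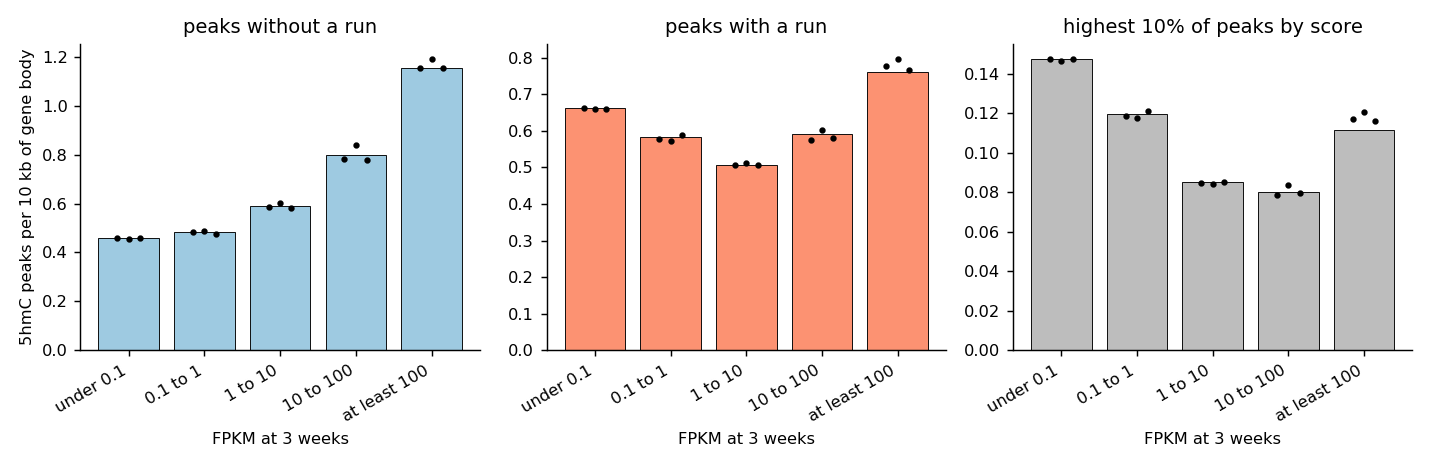
5hmC peaks per 10 kb of gene body by class of FPKM at 3 weeks, for peaks without a run, peaks with a run and the highest 10% by score; the vertical scales differ. Bars use the mean of 3 libraries and dots each library alone; only the peaks without a run rise at every step, from 0.458 to 1.16 per 10 kb.

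The rise held in genes of like length. In bodies of 10 to 30 kb, peaks without a run went from 0.508 per 10 kb under 0.1 FPKM to 1.20 at 100 or more, in bodies of 30 to 100 kb from 0.505 to 1.10, and in bodies under 10 kb from 0.412 to 1.25. Classed by FPKM at 15 weeks, the highest class of 470 genes stood at 1.14 and the lowest at 0.458. Of all 24397 genes of the table, 62.2% had a peak in the body, 51.1% a peak without a run and 20.8% a peak of the highest 10%. By class, a peak was present in 53.2% of the genes under 0.1 FPKM and 68.2% at 0.1 to 1. It was present in 76.3% at 1 to 10, 74.5% at 10 to 100 and 77.3% at 100 or more. This share was not matched for length. Median bodies were 7880.5, 16983, 23009, 16062 and 11196 bp in the same order.

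Starts of genes were the poorest in peaks. In 12244 genes with a body of at least 10 kb, peaks without a run stood at 0.375 per 10 kb in the first 500 bp of genes under 1 FPKM (112 peak centres), 0.182 at 1 to 10 FPKM (41 centres) and 0.127 at 10 to 100 FPKM (10 centres). At 4 to 4.5 kb into the gene, the same classes stood at 0.533, 0.756 and 1.09 per 10 kb. The order of the classes was thus turned around between the start and the body. The class of 100 FPKM or more held 205 genes and 2 centres in the first 500 bp, too few to place it.

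**Figure D3:**
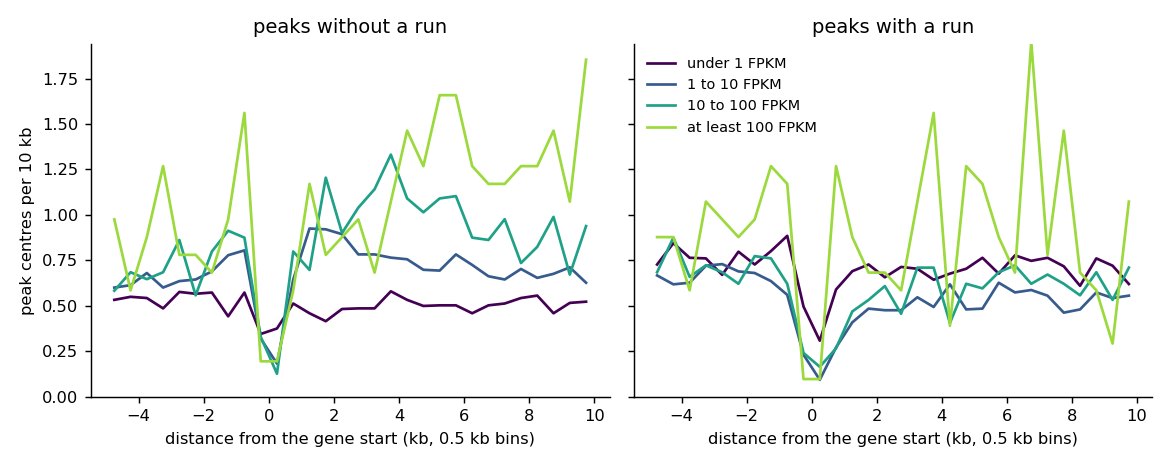
Centres of 5hmC peaks per 10 kb from 5 kb before to 10 kb after the gene start, in bins of 0.5 kb, for 12244 genes of at least 10 kb by FPKM at 3 weeks. Both peaks without a run (left) and with a run (right) dip at the start; the line for 100 FPKM or more rests on 205 genes and is jagged.

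The lists of plasma proteins, bile acid genes, liver transcription factors and metabolic enzymes stood above the mean of all genes. The lists were chosen with earlier results of these data known. Peaks without a run stood at 0.534 per 10 kb over all autosomal genes. Plasma proteins, which hepatocytes secrete into the blood, stood at 1.58 (54 such peaks; 15 of 20 genes with at least 1), genes of bile acid synthesis and transport at 1.29 (11 of 12 genes) and liver transcription factors at 1.20 (148 peaks; 18 of 21 genes). Enzymes of the urea cycle and amino acids stood at 0.985 (16 of 18 genes), glucose and lipid metabolism at 0.957 (25 of 28 genes) and P450 and conjugation enzymes at 0.832 (15 of 19 genes). Median levels at 3 weeks were 1628, 76.5, 12.4, 305, 75.3 and 201 FPKM in the order given, against 0.252 over all autosomal genes. All autosomal genes of 100 FPKM or more stood at 1.16 per 10 kb. The part of expression level in these densities was not tested.

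The remaining lists stood between 0.341 and 0.886 per 10 kb, on both sides of the mean. Markers of leukocytes and Kupffer cells stood at 0.637 per 10 kb (8 of 12 genes with a peak without a run), of endothelial and stellate cells at 0.458 (6 of 12), of the bile duct at 0.401 (2 of 6) and of red cells at 0.886 (5 peaks in all; 3 of 8 genes). Homeobox and patterning genes stood at 0.578 (8 of 20 genes), long neuronal genes at 0.379 (16 of 16), fetal liver genes at 0.341 (9 of 16) and the enzymes that write, oxidise or repair methylcytosine at 0.476 (14 of 16). Genes that every cell uses stood at 0.634 (9 of 20 genes) and had few peaks with a run, at 0.0906 per 10 kb. The bodies of these genes also held few runs, at 0.679 per 10 kb against 2.01 over all autosomal genes. Of these runs, 20.0% had a peak, against 47.1% over all autosomal genes. The lists were not limited to the autosomes, and over all genes of the table this share was 45.5%. The bodies of this list held 16 peaks in all, 14 of them without a run, so the 20.0% rests on few runs.

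The RNA libraries were high in genes of hepatocytes and low in markers of other cells. The plasma protein list summed to 54559 to 62134 FPKM at 3 weeks and 47054 to 47817 at 15 weeks, although Alb, the gene of albumin, was listed at 0 in all 6 libraries. Summed levels at 3 weeks were 7.43 to 16.7 FPKM for the leukocyte list, 29.0 to 79.9 for the endothelial and stellate list, 5.24 to 9.43 for the bile duct list and 13.5 to 18.5 for the red cell list. At 15 weeks they were 2.96 to 8.53, 14.8 to 27.6, 6.05 to 8.22 and 41.6 to 47.3. The part of other cells in the 5hmC library was not tested.

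Single liver genes carried several peaks without a run, and long bodies can hold more. By number, a ranking added after the data were seen, Ptprd held most among the expressed autosomal genes of at least 10 kb. It held 105 in 2271 kb, or 0.462 per 10 kb. Fn1, the gene of fibronectin, held 21 peaks without a run in 67.8 kb. Its levels were 453, 517 and 539 FPKM at 3 weeks and 385, 351 and 347 at 15 weeks. The levels at 15 weeks were all below those at 3 weeks, but the difference did not pass the test (-0.48 ± 0.23 log2, SE; limma adjusted p = 0.133). Rxra, the partner of many nuclear receptors, held 22 in 86.1 kb at 55.9, 44.1 and 66.8 FPKM at 3 weeks. Hnf4a, a transcription factor central to hepatocytes, held 6 of its 10 peaks without a run in 25.7 kb at a mean of 124 FPKM. Nr1h4, the bile acid receptor, held 12 of 24, and Abcb11, the export pump for bile salts, held 14 of 25 in 104 kb.

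Enzymes gave further examples. Cps1, the first enzyme of the urea cycle, held 12 of 23 peaks without a run in 108 kb, at 1632, 1015 and 1757 FPKM at 3 weeks. Dgat2, which makes triglycerides, held 8 of 9 in 29.1 kb. The growth hormone receptor gene Ghr held 28 of 42 in 266 kb and the insulin receptor gene Insr 16 of 32 in 129 kb. Fgb, Fgg, Apoa1 and Apoa2, all of high level, had no peak in bodies of 7.49, 7.16, 1.84 and 1.33 kb.

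The enzymes of the pathway itself stood near the mean of all genes. Tet2, at 4.02, 2.53 and 3.71 FPKM at 3 weeks, held 4 of 8 peaks without a run in 80.7 kb, and Tet3, at 2.82, 2.14 and 3.10 FPKM, held 5 of 9 in 79.3 kb. Tet1, at a mean of 0.0135 FPKM, held 1 of 10. Of the 12 tested genes of this list, against 5.02% higher and 2.48% lower among all genes tested, 1 rose by 15 weeks, Idh1 (1.12 log2, limma adjusted p = 0.000128), and 1 fell, Idh2 (-1.09 log2, limma adjusted p = 0.000567), a pair of isocitrate dehydrogenases that make the cofactor of the TET enzymes in the cytosol and the mitochondria.

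The genes densest in peaks of the highest 10% were not those of highest expression. Among 6951 genes with a body of at least 10 kb and at least 1 FPKM at 3 or 15 weeks, 1947 held such a peak. The 12 densest were A530032D15Rik, Rab17, Gm4956, Pcp4l1, Gal3st1, Iffo1, Hsd17b6, Sec22c, Coq5, Inpp5k, Hao2 and Slc12a9. A530032D15Rik held 4 in 21.7 kb at 1.34, 0.934 and 1.51 FPKM at 3 weeks. Pcp4l1 and Sec22c held 3 each, and the other 9 genes 2 each; Gm4956 was listed at 0 in all 3 libraries at 3 weeks. Rab17, a small GTPase of epithelial cells, stood at 11.1, 10.6 and 11.7 FPKM, and Hsd17b6, a steroid dehydrogenase, at 88.9, 56.4 and 93.3 FPKM.

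Ranked by peaks without a run instead, a ranking added after the data were seen, the 12 densest of these genes included Fpgs, Ppp1r3b, Pqlc2, Adh1, Pxmp4, Hspb8, Slc29a1, Kdm6b, Serpind1 and Srebf1. Adh1, the alcohol dehydrogenase of liver, held 5 in 13.0 kb at 1149, 967 and 1201 FPKM, and Srebf1, the regulator of fatty acid synthesis, held 7 in 21.5 kb at 122, 67.8 and 100.6 FPKM. No gene was in both rankings.

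Genes that changed with age were next compared. Of 11166 genes tested, 561 rose from 3 to 15 weeks (5.02% of those tested) and 277 fell (2.48%), at a limma adjusted p of at most 0.05 and at least 1 log2 unit. In autosomal genes, peaks without a run stood at 0.678 per 10 kb in those that fell, 0.633 in those that rose and 0.619 in those tested and not called. Over all peaks, the densities were 1.37, 1.25 and 1.14. The differences are small beside the rise with expression level, and age differed here together with other things: Xist, the RNA of the inactive X chromosome, stood at 62.0 ± 14.6 FPKM (SD, n = 3) at 3 weeks and 0.0198 at 15 weeks. By Xist, the 3 week animals read as female and the 15 week animals as male. Age and sex cannot be told apart in these calls, nor in the age differences named below.

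Among called genes with a peak of the highest 10% in the body, 143 rose and 74 fell. On the autosomes such a peak was in 26.0% of the genes that rose, 28.5% of those that fell and 19.8% of those tested and not called. The largest rises were those of Cyp4a12a, Cyp4a12b, Ces1f, Slco1a1, Serpina4-ps1 and Cyp7b1, which include P450 enzymes, a carboxylesterase and an organic anion transporter. Slco1a1 went from 0.962, 0.957 and 1.08 FPKM to 119, 128 and 155 (6.07 ± 0.22 log2, SE; limma adjusted p = 2.61e-10) and held 6 peaks, 2 without a run. Cyp7b1, which hydroxylates oxysterols and steroids, held 19 peaks, 9 without a run, in 171 kb and went from 0.778, 0.647 and 0.836 FPKM to 75.9, 102 and 84.4. The other 4 stood at no more than 3.76 FPKM in any library at 3 weeks, and Serpina4-ps1 varied at 15 weeks from 26.2 to 43.1 and 237 FPKM. Cyp4a12a and Cyp4a12b, like the Cyp2b and Sult2a genes below, are near copies of each other, so their reads and FPKM are uncertain.

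The largest falls included those of Sult2a1, Cyp2b9, Cyp2b13, Sult2a6 and Hao2, sulfotransferases and oxidising enzymes. Cyp2b9 went from 301, 148 and 227 FPKM to at most 0.853 and held 9 peaks, 5 without a run. Sult2a1 went from 739, 533 and 737 FPKM to at most 0.0294 and held 2 peaks in 41.2 kb.

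Members of the lists were called by the same limma test, by which 5.02% of all genes tested rose and 2.48% fell by 15 weeks. No test between lists was run. Of 28 tested genes of glucose and lipid metabolism, 9 rose and 1 fell. Those that rose included Fasn (3.13 log2, limma adjusted p = 8.34e-06), the fatty acid synthase, and Acacb (3.59 log2, limma adjusted p = 1.07e-07), an acetyl-CoA carboxylase. Of 19 P450 and conjugation enzymes, 10 rose and 2 fell. Of 12 tested fetal liver genes, 7 fell and none rose, among them H19 (-8.28 log2, limma adjusted p = 5.54e-13) and Igf2 (-4.22 log2, limma adjusted p = 2.1e-10), a pair of imprinted genes. Among markers of other cells, 5 of 10 endothelial and stellate and 2 of 7 leukocyte and Kupffer genes fell. Their part in the other changes with age was not tested.

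Deletion of Tet2 and Tet3 at 1 day gave 129 genes higher (1.16% of 11166 tested) and 267 lower (2.39%) in DKO than in injected controls at 15 weeks, by the same limma test. Peaks without a run stood at 0.699 per 10 kb in the autosomal genes that were lower, 0.622 in those that were higher and 0.619 in those not called. Over all peaks, the densities were 1.46, 1.24 and 1.14 per 10 kb. The classes differed in level, with medians of 18.8, 1.57 and 5.03 FPKM in uninjected WT at 15 weeks in the same order. Autosomal genes at 10 to 100 FPKM at 15 weeks stood at 0.755 without a run and 1.32 over all peaks. The part of expression level in these differences was not tested. Pcp4l1 was lower in DKO (-1.29 log2, limma adjusted p = 0.00231), as were Slc29a1, a nucleoside transporter (-1.17 log2, limma adjusted p = 0.00185), and Cyp7b1 (-1.88 log2, limma adjusted p = 0.0054).

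Of the 19 P450 and conjugation enzymes, 9 were lower in DKO and 2 higher. Cyp2e1, an ethanol-oxidising P450, was lower (-3.74 log2, limma adjusted p = 1.04e-05). Of 18 urea cycle and amino acid enzymes, 4 were lower, and of 21 liver transcription factors, 1 was, Nr1i3 (-3.48 log2, limma adjusted p = 1.96e-05), the receptor that governs many P450 genes. Of 12 tested fetal liver genes, 3 were higher, with H19 at 2.13 log2 (limma adjusted p = 3.3e-06).

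WGBS tiles that lost methylation after birth, and stood at least 35 points higher in DKO than in adult, held a peak more often than any other class. Mean methylation was compared in tiles of 200 bp. A value in all 3 libraries was present for 8049849 tiles, of which 9.56% overlapped a 5hmC peak. A peak overlapped 21.6% (21.3 to 21.8) of the 92695 tiles that were at least 35 points lower in adult than in newborn and at least 35 points higher in DKO than in adult. It overlapped 16.2% of 29198 tiles with the same loss and a DKO value 15 to 35 points above adult, and 14.0% (13.3 to 14.7) of 9363 tiles with the same loss and DKO less than 15 points above adult. Tiles that gained at least 35 points stood at 13.8% (n = 21017), tiles at 80% or more at both ages at 8.76% (n = 3998271) and tiles under 20% at both ages at 7.93% (n = 238594).

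Away from repeats the first class stood further above the others. Only tiles more than 250 bp from a run were then counted, which left 81996 tiles of the first class. The shares were 17.4% (17.2 to 17.7), 10.9%, 7.71%, 8.53%, 5.39% and 4.97% in the same order of classes. Tiles lost and not higher in DKO were then below the tiles that gained, the other way round from all tiles, and the first class stood 3.23 times above tiles high at both ages, against 2.46 times over all tiles. Within 250 bp of a run it stood 1.54 times above them, at 53.2% against 34.5%.

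Peaks of high score did not show this order. The highest 10% overlapped 1.12% (1.06 to 1.19) of the tiles lost and higher in DKO, 0.981% of tiles high at both ages, and 1.73% (1.48 to 2.01) of the tiles lost and not higher in DKO. The first class stood 1.14 times above tiles high at both ages and below the tiles lost in DKO as well. Of the peaks, 4.59% (4.52 to 4.67) held a tile of the first class, 5.73% of those without a run and 2.28% of the highest 10%. The first class made up 92695 of the 8049849 tiles, and a peak can overlap several tiles. No such share is given for placed windows, so these shares cannot be read as above or below the genome.

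The share with a peak was graded with the methylation change. Away from runs and among tiles that lost at least 35 points, it was 7.38% where DKO was below adult, 7.78% at 0 to 15 points above, 8.44% at 15 to 25, 12.4% at 25 to 35, 15.9% at 35 to 45, and 18.4% at 65 points or more. Among tiles at 80% or more in newborn, it went from 5.17% at a loss of 0 to 5 points to 7.14% at 15 to 25, 12.6% at 35 to 45 and 19.5% at 65 points or more. CpG number moved along the first scale too, with a mean of 1.14 CpG in the tiles where DKO was below adult and 2.22 in those at 65 points or more.

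CpG number separated the classes further. Away from runs, tiles lost and higher in DKO had a peak in 10.8% of cases at 1 CpG, 15.7% at 2, 21.6% at 3, 27.1% at 4, 31.9% at 5 and 39.6% (38.1 to 41.2) at 6 or more. Of the 9363 tiles lost and not higher in DKO, 8239 held 1 CpG. Away from runs these tiles stood at 7.59% at 1 CpG and 9.40% at 2, so at 1 and at 2 CpG the gap to the tiles higher in DKO was smaller than over all CpG numbers (17.4% against 7.71%). Tiles high at both ages went from 5.77% at 1 CpG to 4.29% at 6 or more, and tiles low at both ages from 6.55% to 3.14%. Of the classes lost and higher in DKO, high at both ages and low at both ages, the share rose at every step of CpG number in the first alone.

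**Figure D4:**
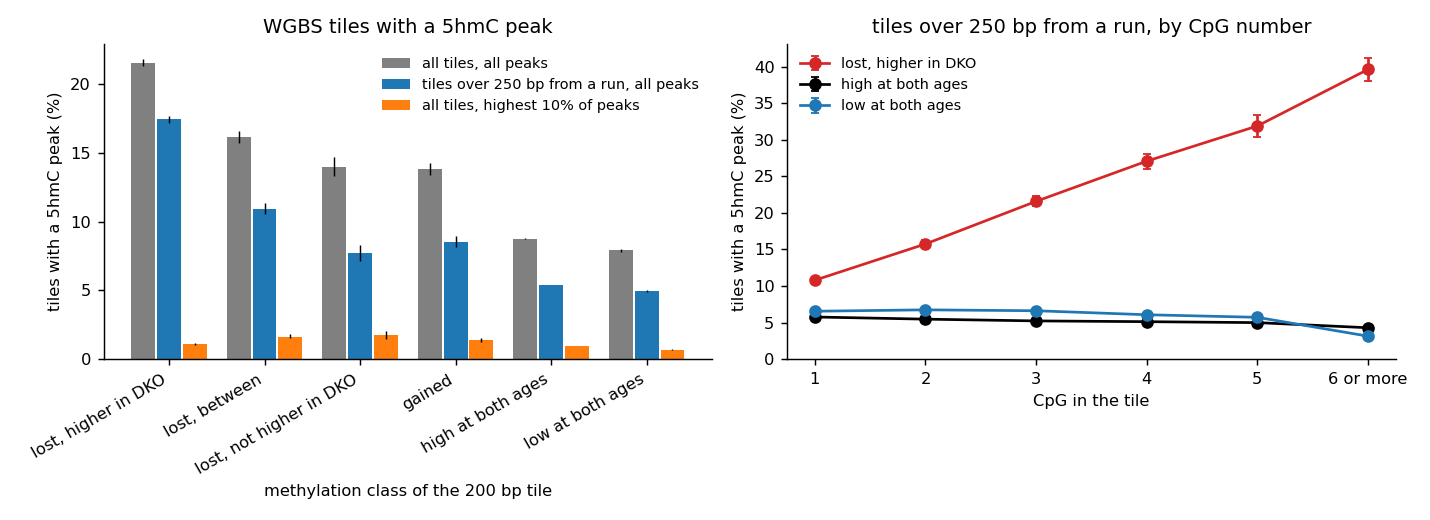
Share of 200 bp WGBS tiles that overlap a 5hmC peak, with 95% Wilson intervals. Left, by methylation class, for all tiles, for tiles over 250 bp from a run, and for the highest 10% of peaks; tiles lost and higher in DKO stand at 21.6%, 17.4% and 1.12%. Right, by the number of CpG in tiles over 250 bp from a run, where the tiles lost and higher in DKO rise from 10.8% to 39.6%.

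The share with a peak also differed by the expression of the host gene. Away from runs, tiles lost and higher in DKO had a peak in 12.0% of cases in genes under 1 FPKM at 3 weeks, 17.9% at 1 to 10, 25.1% at 10 to 100 and 29.9% (28.3 to 31.5) at 100 or more, and 14.5% outside genes. Tiles high at both ages went from 4.64% to 5.43%, 7.75% and 14.1% over the same classes, so the gap between both classes of tiles did not widen from 10 to 100 FPKM to the highest class. Tiles low at both ages stayed between 4.42% and 5.05%. By feature, tiles of the first class away from runs stood at 23.4% in exons, 20.1% in promoters, 18.7% in introns and 13.8% between genes.

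Seen from the peaks, methylation differed little from the flanks. At the centres of peaks without a run, mean methylation was 78.4% in newborn, 73.2% in adult and 76.5% in DKO, against 77.9%, 74.7% and 76.1% at 2 kb before the centre. The share of tiles lost and higher in DKO was 3.72% at the centre and 1.72% at 2 kb. For peaks with a run it was 1.93% against 1.23%. For the highest 10% it was 1.14% at the centre, 0.811% at 2 kb before it and 1.08% at 2 kb after it. The centres of the highest 10% thus stood little above the flank after them. They were also not above the share over all tiles, 92695 of 8049849, which was close to theirs. Peaks without a run stood above the share over all tiles at the centre and at 2 kb on both sides.

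Peaks of open chromatin and of regulatory marks had 5hmC somewhat more often than placed windows. Because peak sizes differed between assays, windows of 500 bp at the peak centres were compared with the placed windows, both at least 1 kb from a transcription start, where a 5hmC peak was in 14.1% of the placed windows. ATAC-Seq peaks stood at 18.6% and 17.3% in the 2 WT libraries and at 16.1% and 16.6% in the 2 deleted ones. Peaks of HNF6, a transcription factor of hepatocytes, stood at 20.1% and 19.1% in WT and 18.3% and 15.6% in deleted livers. H3K27ac, a mark of active regulatory DNA, stood at 21.2% in WT and 17.4% in DKO, and H3K4me1, a mark of enhancers, at 19.1% and 14.9%. All 12 libraries stood above the placed windows, and each WT library stood above each deleted library of its assay. With 2 libraries against 2 or 1 against 1, this was not tested, and the libraries differed in their number of peaks, from 4387 to 34665 for HNF6.

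Base by base, the centres were lower than their surroundings. For ATAC-Seq peaks at least 1 kb from a start in WT livers, 9.23% and 8.62% of the bases within 250 bp of the centre lay in a 5hmC peak. At 500 to 750 bp it was 14.1% and 12.7%, and at 4.75 to 5 kb 11.03% and 9.99%. HNF6 peaks in WT went from 10.5% and 10.1% at the centre to 14.5% and 13.0% at 500 to 750 bp. H3K27ac peaks in WT went from 12.5% to 13.6%, a smaller step, and in DKO from 9.27% to 13.4%. Where no run lay within 1 kb, the WT ATAC-Seq peaks were at 6.24% and 5.59% at the centre and 9.14% and 7.95% at 500 to 750 bp, and 10.7% and 9.75% at 4.75 to 5 kb. Away from runs the centre was thus again the lowest, but the flank did not stand above the distant DNA; leaving out runs within 1 kb also takes peaks with a run out of the flank by construction.

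**Figure D5:**
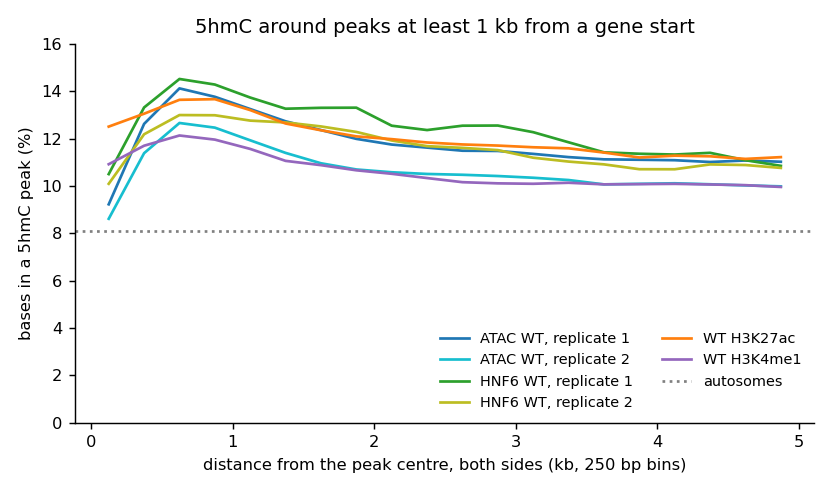
Share of bases in a 5hmC peak by distance from the centre of ATAC-Seq, HNF6, H3K27ac and H3K4me1 peaks of WT samples at least 1 kb from a gene start, in bins of 250 bp, both sides together. The ATAC-Seq and HNF6 lines are lowest at the centre and highest near 0.5 to 1 kb; the dotted line is the autosomal share of 8.09%.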

How the data were processed

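Peaks had been called by the authors with HOMER findPeaks in its histone style, without input for the 5hMeDIP library; the deposited score is that of findPeaks, and the deposited tag signal is scaled to the same tag total in each library. The authors deposited WGBS methylation as a fraction per 200 bp tile (mm9, here given in percent, coverage unknown) and expression as FPKM from Cufflinks. RRBS files were not used here, and 6 columns of the FPKM table that match no labelled condition were left out. Peaks and tiles were placed on the mm9 genome (NCBIM37) with the GENCODE annotation. Gene bodies are the intervals of the FPKM table.

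FPKM was tested with limma 3.58.1 (R 4.3.3) on log2(FPKM + 1), with an eBayes trend, over 18 libraries and genes of at least 1 FPKM in a condition, adjusted by Benjamini-Hochberg, so that changes of low genes are understated. The code was tested on simulated data. Replicates are separate libraries in the labels, and columns carry animal numbers. Single libraries were not tested; shares have 95% Wilson intervals. Overlap means at least 1 bp. Genes were named by peaks of the highest 10% per 10 kb, by the largest age differences among called genes with such a peak, or as list members. The members, lists and tests were chosen with earlier results of these data known. Alternatives were other score limits, overlaps, thresholds, pseudocounts, filters and left-out libraries. Some genes and sequences named by these rules are not reported here.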

Additional observations from a re-analysis of the deposited data

Results flagged for a closer look

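Peaks outside the autosomes were not used in the comparisons. The X chromosome held 2882 peaks, or 17.8 per Mb against 110 to 126 on the autosomes, with a median score of 18 against 20 over the list. Of the tandem runs on X, 11.4% overlapped a peak, against 48.1% on the autosomes. Genes on X had 0.148 peaks per 10 kb of body under 0.1 FPKM and 0.178 at 10 to 100 FPKM, against 1.12 and 1.39 on the autosomes. Otc, the urea cycle gene on X, was at a mean of 140 FPKM (SD 26.2, n = 3) at 3 weeks and had no peak in 68.7 kb, and Hprt and Pgk1 had none. The Y chromosome held 67 peaks. Mitochondrial DNA held 2 peaks, with the highest scores of the list, 945 and 921. These values were singled out because they lie outside the analysed chromosomes.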

How the results depend on the processing

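The score limit decided most values. With the highest 50% and the highest 10% of peaks, exons held 0.892% and 0.516% of peaks, intergenic DNA 60.01% and 61.1%, genes of at least 100 FPKM a median of 0.751 and 0.0 peaks per 10 kb (2.07 with all peaks), tiles lost and higher in DKO a peak in 8.39% and 1.12%, tiles high at both ages in 4.49% and 0.981%, and WT ATAC-Seq peaks in 3.67% and 0.675% (8.31% with all). Alternatives on tandem runs were chosen after seeing the data. Peaks without a run gave 1.93% in exons, 56.0% between genes, a median of 1.06 per 10 kb, a peak in 69.97% of genes of at least 100 FPKM (15.7% with the highest 10%), 12.3% of tiles lost and higher in DKO, 3.90% of tiles high at both ages and 4.22% of WT ATAC-Seq peaks. Tiles over 250 bp from a run gave 17.4% and 5.39%, or 16.1% and 4.46% for runs of at least 20 bp. Runs of at least 20 bp were in 60.8% of peaks, and runs of at least 30 bp in 60.1% of the highest 10%. By overlap, exons took 4.48% and intergenic DNA 58.7%, and by protein-coding transcripts 1.01% and 61.4%. FPKM at 15 weeks gave a median of 1.92 per 10 kb, and 0.5 FPKM as the limit 74.9% of expressed genes with a peak, against 75.9%. With 50% of the tile covered, 17.8% and 6.47% of the same tile classes had a peak. A change of 25 or 50 points gave 19.3% and 22.7% of tiles lost and higher in DKO, and 2 to 4 CpG 23.7%, with 8.63% of tiles high at both ages. Overlap of 50% of the smaller peak gave 6.39% of WT ATAC-Seq peaks and those at least 1 kb from a start 10.4%. A pseudocount of 0.1 gave 614 genes lower at 15 weeks, and 220 higher and 442 lower in DKO. Leaving out 1 library gave 1.98 to 2.07 peaks per 10 kb, 76.4% to 79.4% of genes with a peak, 464 to 623 genes higher and 241 to 313 lower with age, and 92 to 136 higher and 195 to 350 lower in DKO. The cause of these shifts was not tested. No paired analysis was possible because the columns carry animal numbers and not the replicate numbers of the labels. The read depth behind each tile value is unknown.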
